A study of Mus musculus with 48 samples.

Results

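The livers of 8 heterozygous male mice (HZ, Wfs1 +/-) and 8 wild type male mice (WT, Wfs1 +/+), all given saline, were compared across every probeset of the array. The 16 mice were taken by the genotype and the vehicle in their labels from 48 mice measured, with 1 Affymetrix Mouse Gene 1.0 ST array per liver. Each had received saline at 10 mL/kg into the peritoneum daily for 12 weeks, from an age of 4 to 6 weeks. The livers were collected at 16 to 18 weeks of age. All mice had by then been given glucose (2 g/kg) in a tolerance test, which lay 24 hours behind them and was itself separated by 24 hours from the final injection. The hour at which each mouse was killed is not given in the sources used here. Set beside these groups were 8 HZ and 8 WT mice given valproic acid (VPA) at 300 mg/kg in place of saline, and 8 saline mice without functional Wfs1 (KO, Wfs1 -/-). The mutant allele was made by invalidating exons 7 and 8 of Wfs1, and the sources used here describe no restriction of it to the liver.

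The product of Wfs1, wolframin, spans the membrane of the endoplasmic reticulum (ER) and takes part in calcium handling and in the response to unfolded proteins. Its complete loss causes Wolfram syndrome, with diabetes among its first signs, and carriers of 1 mutated copy are far more common than patients. In the liver a large set of genes follows the circadian clock, in which CLOCK and BMAL1 (encoded by Arntl) switch on genes through E-boxes, and the PER, CRY and CIART proteins made in this way hold them back. REV-ERB and ROR receptors act on Arntl through another site, the RORE, and the factors DBP, TEF and HLF pass the rhythm on through D-boxes.

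After normalization the median log2 signal of the 16 arrays lay between 6.905 and 7.016, and pairs of arrays correlated between 0.978 and 0.992. The mean correlation was 0.988 within the groups and 0.987 between them, and no 2 arrays held identical values. The labels do not say whether mice shared a litter, so that p-values measure the spread between single mice. For limma this spread was pooled over all groups of the series, KO and VPA mice included. The exact permutation tests of HZ against WT used the 16 arrays alone. Markers of hepatocytes defined the tissue in both groups, at a mean log2 level of 13.77 to 13.91 in HZ mice and 13.83 to 13.89 in WT mice over 9 genes.

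Wfs1 (probeset 10529605) was lowest at 8.20, had a median of 8.28 and was highest at 8.53 in HZ mice, against 8.24, 8.44 and 8.60 in WT mice. The groups overlapped, although 7 of 8 HZ mice lay below the WT mean. The difference of -0.12 (SE 0.10, 95% interval -0.32 to 0.07) did not pass the test across all probesets (adjusted p = 0.665, limma), while a two-sided exact permutation test of this gene alone gave p = 0.0399. The probeset summarizes probes along the whole gene, while the mutant allele lacks only a part of it, so this level does not check the deletion. The PCR measurement of Wfs1 made by the study is not analysed here.

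In HZ against WT mice 108 of 35556 probesets passed an adjusted p of 0.05 (0.304%), of which 44 were higher (0.124%) and 64 lower (0.18%) in HZ mice. Changes were mostly small. The median size was 0.46 on the log2 scale, 63 probesets changed by less than 0.5, and all 9 that changed by 1 or more were higher in HZ mice. At the unadjusted threshold of the study, p under 0.001, 279 probesets passed (0.785%). HZ and WT mice did not overlap at 56 probesets (0.157%), with HZ mice above all WT mice at 26 of them (0.0731%) and below all at 30 (0.0844%). Of 19938 genes with a probeset of their own, 37 rose (0.186%) and 56 fell (0.281%), while 1205 (6.04%) were higher and 1280 (6.42%) lower at an unadjusted p under 0.05. Centring each array on its median gave 29 higher and 69 lower probesets. Markers of non-parenchymal cells moved with these changes, with 40 of 41 lower on average in HZ mice, and their part in the count was not tested. The count rested on a few arrays. It ranged from 26 without HZ saline replicate 4 to 143 without HZ saline replicate 2, was 64 when only the 16 arrays were fitted, and was 8 without WT saline replicates 1, 2 and 7, the arrays with the lowest limma weights (a choice made after seeing the data). Those 8 were Abhd1, Clock, Avpr1a, Gatm, Bmp2, Fzd4, Sardh and a probeset without a gene symbol. Of 54 passing probesets followed through every alternative, Ciart counting with 2, those of Abhd1, Clock and Avpr1a passed each time and 51 lost the call under at least 1.

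**Figure D1:**
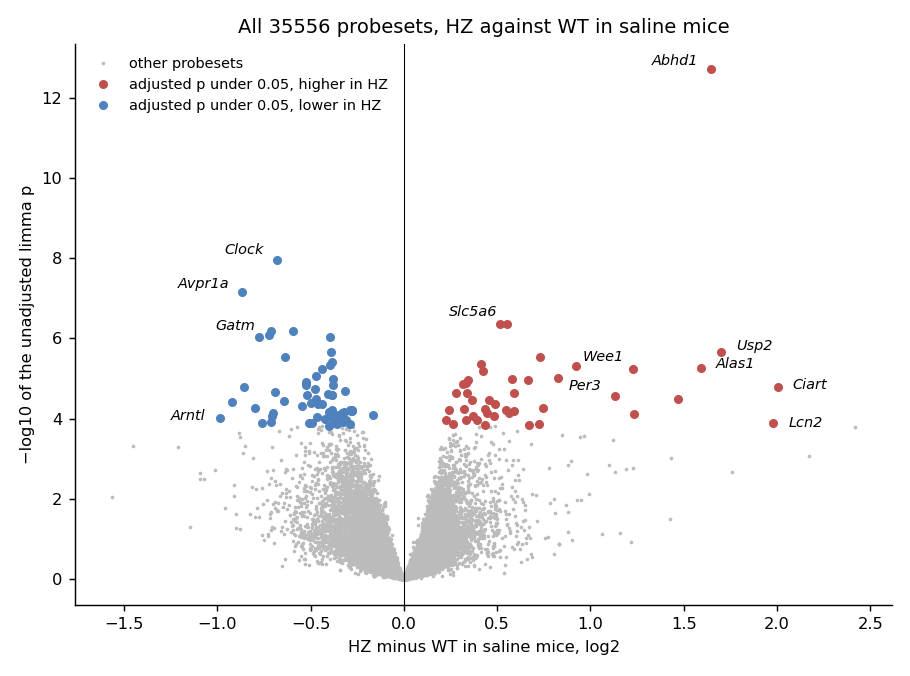
Each point is 1 of 35556 probesets, with the HZ minus WT difference in saline mice (log2) across and −log10 of the unadjusted limma p upwards, and colour marks the 44 higher and 64 lower probesets past the adjusted p. Abhd1 stands above all others, and the points at the far right include the clock genes Ciart, Usp2 and Per3 and their outputs Alas1 and Wee1.

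Abhd1 (probeset 10520622), a hydrolase of the alpha/beta fold family, showed the clearest change. It lay between 10.07 and 10.50 (median 10.40) in HZ mice, against 8.12 and 9.12 (median 8.77) in WT mice. The groups were separated by a wide gap. Abhd1 rose by 1.65 in HZ mice, a fold of 3.13 (SE 0.16, adjusted p = 7.07e-09), and the exact permutation test gave p = 0.000155, the smallest that 8 mice against 8 allow. In VPA mice, which are other animals, the HZ minus WT difference was 1.41 (SE 0.16, adjusted p = 8.15e-07). HZ VPA replicate 7 was at 8.86, within the range of the WT VPA mice (8.49 to 9.07). The SD of HZ VPA mice was 0.60, against 0.16 in HZ saline mice. Replicate 7 was kept in every VPA contrast, and the cause of its level was not tested. In KO mice given saline the gene was higher still, by 2.26 against the same WT mice and by 0.61 against the HZ mice (adjusted p = 0.0351). HZ mice were thus between WT and KO mice in Abhd1, as they were for 3 of the 108 probesets. Those 108 were chosen for a difference between HZ and WT mice, which by itself makes this order less frequent.

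Abhd1 lies on chromosome 5, as does Wfs1, at a distance of 91 measured genes in the gene order of GRCm38.p6. Within 20 Mb of Wfs1 5 of 260 genes passed (1.92%), on the rest of chromosome 5 11 of 879 (1.25%) and on other chromosomes 77 of 18716 (0.411%). The call shares on chromosome 5 are given as a description, since neighbouring genes are not independent. Close to Abhd1, 88 genes from Wfs1, lies Slc5a6, the transporter of biotin and pantothenate, which was at 7.58 to 8.22 (median 7.97) in HZ mice and 7.22 to 7.58 (median 7.41) in WT mice. It rose by 0.55 (SE 0.09, adjusted p = 0.00318), with 7 of 8 HZ mice above all WT mice. The other 3 genes of the window fell in HZ mice.

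Spon2, a secreted matrix protein, was at 7.23 to 7.60 (median 7.36) in HZ mice and 7.59 to 8.68 (median 7.84) in WT mice. It fell by 0.64 (SE 0.14, adjusted p = 0.0255) and the difference from WT was -0.35 in VPA mice, where it did not pass, and -0.78 in KO saline mice (adjusted p = 0.00186). Selenoi, an ethanolamine phosphotransferase of phospholipid synthesis, fell by 0.28 without overlap of the groups, and Reln, a secreted glycoprotein of stellate cells, fell by 0.35. In VPA mice the differences of Slc5a6 (0.08), Selenoi (-0.08) and Reln (0.10) were small, that of Reln being of the opposite sign, and none passed. Farther along the chromosome Clock, Lnx1, Atp2a2, Pgm2 and 7 other genes, named after their values were seen, passed. Those 7 were Rbm47, 9130230L23Rik, Slc46a3 and Tmem184a, which were higher, and Rell1, Igfbp7 and Actb, which were lower. At an unadjusted p under 0.05 the saline comparison held 12.3% of the genes within 20 Mb of Wfs1, 15.1% on the rest of chromosome 5 and 12.4% on other chromosomes. In VPA mice the same shares were 5.77%, 2.96% and 2.49%.

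**Figure D2:**
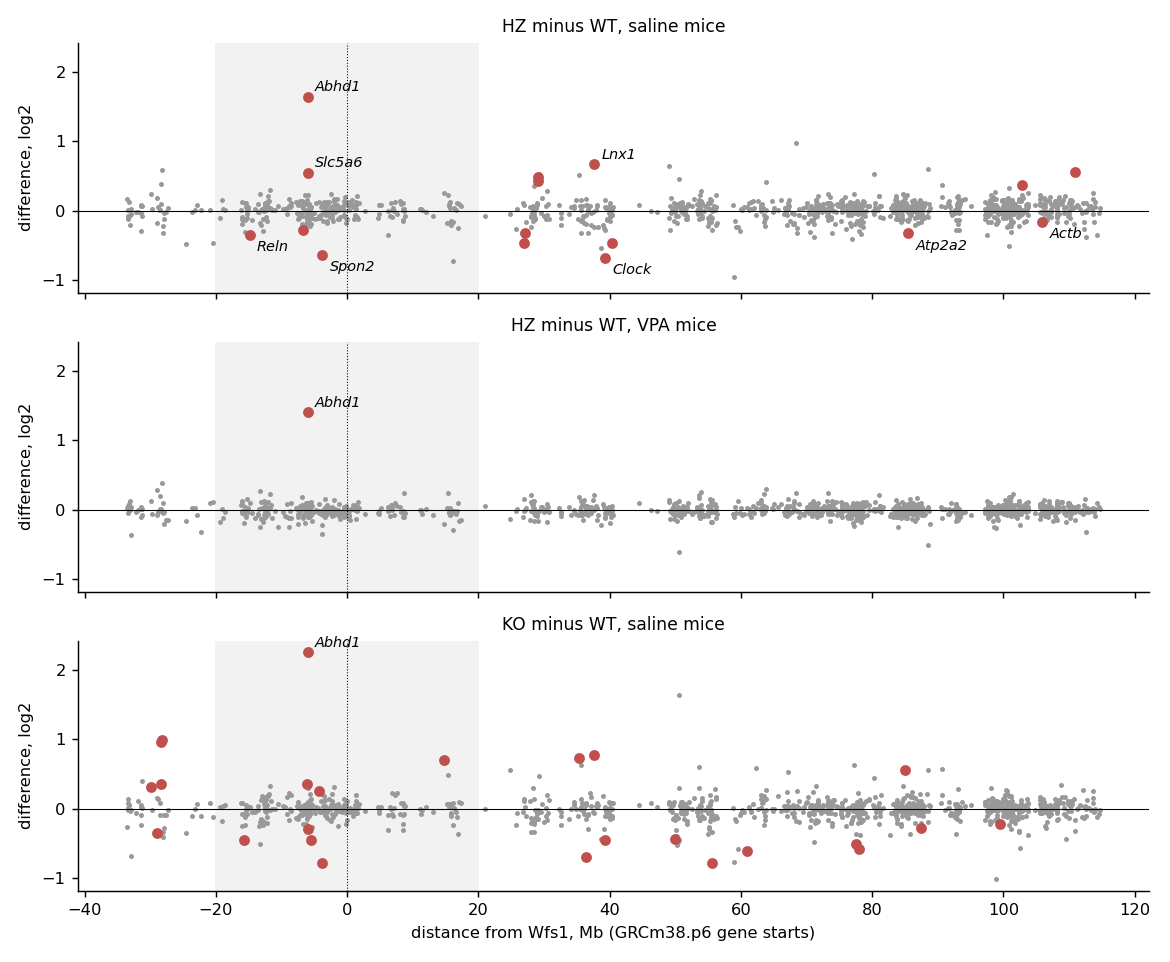
Differences (log2) of the genes of chromosome 5 are drawn against their distance from Wfs1 (Mb) for HZ minus WT in saline mice, HZ minus WT in VPA mice and KO minus WT in saline mice, with genes past the adjusted p in red and the 20 Mb window shaded. Abhd1 is the highest point in all 3 panels, at 1.65, 1.41 and 2.26.

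The circadian clock held several of the largest changes. The hour at which each mouse was killed is not given. The part of collection time in the HZ minus WT differences of clock genes and their outputs was therefore not tested. Over 5 lists of activators, repressors, REV-ERB and ROR receptors, PAR bZIP factors and modifiers of the clock, 26 of 29 genes were measured, of which 5 rose and 2 fell. Over all genes 0.186% rose and 0.281% fell. The median difference of these 26 genes was 0.11, beside 0.02 over all 19938 genes. Without WT saline replicates 1, 2 and 7, Clock alone passed of the 26, and the other 6 kept their direction. Without HZ saline replicate 8, 2 of the 26 passed. In VPA mice none of the 26 passed, and their median difference was 0.03. However, some clock genes lay at other levels there. Mean Arntl was 9.12 in HZ and 9.246 in WT VPA mice, against 6.763 and 7.747 in saline mice. Mean Dbp was 7.765 and 7.631, against 10.82 and 9.696, while Rora was similar (10.2 and 10.22, against 10.09 and 10.04). The saline and VPA contrasts of the clock are thus not like for like, and the cause of these levels was not tested. Lists and their members were chosen with earlier results of these data known.

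Both measured activators fell. Clock (probeset 10530733), a basic helix-loop-helix factor with acetyltransferase activity, was at 8.94 to 9.59 (median 9.31) in HZ mice, against 9.76 to 10.08 (median 9.96) in WT mice. Every HZ mouse lay below every WT mouse. The fall was 0.68 (SE 0.10, adjusted p = 0.000193) and passed under every alternative, leave-one-out fits included. Arntl (probeset 10556463), its partner, was at 6.45 to 7.08 (median 6.69) in HZ mice and 7.05 to 8.65 (median 7.80) in WT mice. It fell by 0.98 (SE 0.23, adjusted p = 0.0394), with 7 of 8 HZ mice below all WT mice. This call was lost in 11 of the 16 fits without 1 array.

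Among the repressors the changes went the other way. Per3 (probeset 10518781), a period protein, was at 9.11 to 9.81 (median 9.57) in HZ mice and 7.23 to 8.87 (median 8.48) in WT mice, with no overlap. It rose by 1.13, a fold of 2.19 (SE 0.24, adjusted p = 0.0214). Ciart, which encodes the CLOCK and BMAL1 repressor CHRONO, is named by 2 probesets. The first was at 9.26 to 11.21 (median 9.91) in HZ mice and 5.97 to 9.11 (median 8.53) in WT mice. It rose by 2.00 (SE 0.41, adjusted p = 0.0162), and the second Ciart probeset rose by 1.47 (SE 0.32, adjusted p = 0.0237). Cry2, a cryptochrome, was at 9.13 to 9.44 in HZ mice and 8.61 to 9.13 in WT mice and rose by 0.44 (adjusted p = 0.0331). Per1 (0.95), Per2 (0.60), Bhlhe41 (0.58), Bhlhe40 (0.18) and Cry1 (-0.13) did not pass.

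Of the output factors Tef rose by 0.59 (SE 0.13, adjusted p = 0.0332), at 9.99 to 10.36 (median 10.24) in HZ mice and 8.98 to 9.88 (median 9.70) in WT mice. Dbp, whose message cycles with one of the highest amplitudes in liver, was at 10.68 to 11.03 (median 10.76) in HZ mice and 8.15 to 10.38 (median 9.93) in WT mice. All 8 HZ mice lay above all 8 WT mice, and their SD was 0.14, against 0.77 in WT mice. The Dbp difference of 1.12 (SE 0.29) did not pass over all probesets (adjusted p = 0.0766), although the exact permutation test gave its smallest value, p = 0.000155. Hlf differed by 0.27 and did not pass. Usp2, a deubiquitinase that acts on clock proteins, rose by 1.70 (SE 0.31, adjusted p = 0.00637), at 9.22 to 10.77 in HZ mice and 7.62 to 9.33 in WT mice. The REV-ERB genes Nr1d1 (-0.03) and Nr1d2 (0.36) and the ROR gene Rora (0.05) did not pass.

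**Figure D3:**
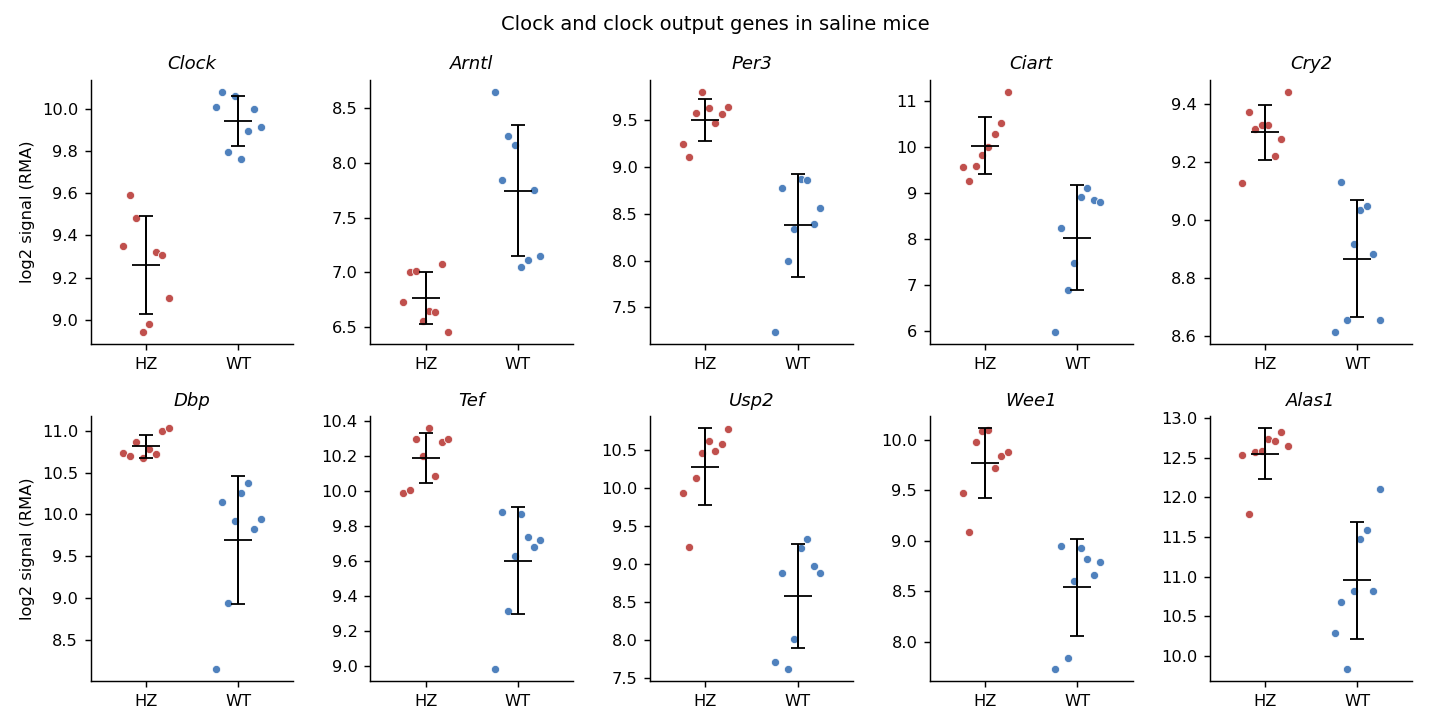
Log2 signal of 10 clock and clock output genes in saline mice, with 1 point per mouse, HZ left of WT, and the mean and SD as bars (n = 8 each). HZ and WT mice do not overlap in Clock, Per3, Ciart (the first of its 2 probesets), Dbp, Tef and Wee1, and WT mice are spread more widely than HZ mice in Dbp and Arntl.

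The promoters of 4 clock genes that changed are shown because they hold letters that match the sites named above. Promoter sequences, from 250 bases before to 50 bases after the start, were those of RefSeq on GRCm38.p6 and were found for 22 of the 26 clock genes. They were searched on both strands for the E-box CACGTG, the D-box as TTATGTAA, TTATGCAA or TTACGTAA, and the RORE as TAGGTCA or TGGGTCA, none of which overlapped in these 4. Of all 32851 promoters of this length 7.15% held the E-box, 1.78% the D-box and 6.45% the RORE. Capitals mark the matches.
Ciart, chr3:95882179-95882478, minus strand, 3 E-boxes: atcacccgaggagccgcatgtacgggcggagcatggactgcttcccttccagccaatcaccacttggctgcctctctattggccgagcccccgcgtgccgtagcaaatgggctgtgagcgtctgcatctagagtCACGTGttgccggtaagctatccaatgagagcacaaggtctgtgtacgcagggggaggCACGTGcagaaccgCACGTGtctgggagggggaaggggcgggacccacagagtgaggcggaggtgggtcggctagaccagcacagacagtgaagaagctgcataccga
Tef, chr15:81802423-81802722, plus strand, 1 of 2 promoters listed, 1 E-box: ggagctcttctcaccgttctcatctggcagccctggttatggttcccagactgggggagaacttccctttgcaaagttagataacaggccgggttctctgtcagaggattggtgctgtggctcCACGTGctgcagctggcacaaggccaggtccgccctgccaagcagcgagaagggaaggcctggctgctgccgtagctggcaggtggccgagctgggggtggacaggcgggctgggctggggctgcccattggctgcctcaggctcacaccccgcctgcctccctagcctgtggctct
Per3, chr4:151044616-151044915, minus strand, 2 D-boxes: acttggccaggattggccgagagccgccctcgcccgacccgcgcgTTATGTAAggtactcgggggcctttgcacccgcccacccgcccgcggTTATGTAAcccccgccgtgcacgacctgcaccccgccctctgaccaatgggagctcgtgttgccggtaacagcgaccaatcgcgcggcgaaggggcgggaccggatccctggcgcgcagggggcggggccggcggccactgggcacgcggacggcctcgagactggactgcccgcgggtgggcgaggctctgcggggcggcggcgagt
Arntl, chr7:113207261-113207560, plus strand, 1 of 2 promoters listed, 1 RORE: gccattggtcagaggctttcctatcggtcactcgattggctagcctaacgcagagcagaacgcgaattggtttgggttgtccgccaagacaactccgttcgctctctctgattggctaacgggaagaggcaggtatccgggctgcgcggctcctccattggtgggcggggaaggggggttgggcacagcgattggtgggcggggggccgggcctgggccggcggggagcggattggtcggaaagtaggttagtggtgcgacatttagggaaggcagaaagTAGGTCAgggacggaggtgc
The E-boxes of Ciart begin at positions -116, -58 and -44 from the start, and the D-boxes of Per3 at -205 and -158. Clock genes that did not pass also held matches, the E-box in Bhlhe41, Cry1, Fbxl22 and Per1, the D-box in Per1 and Timeless and the RORE in Nfil3. The windows of Clock, Cry2, Dbp and Usp2, of which Clock, Cry2 and Usp2 passed, held none of these letters. A match is a description of the sequence and not a site shown to be bound in these livers.

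Rhythmic outputs of the liver moved in both directions, with 3 of 29 measured genes higher and 3 lower in HZ mice. Of all genes 0.186% were higher and 0.281% lower past the same threshold. Alas1 (probeset 10596454), the rate-limiting enzyme of heme synthesis, was at 11.79 to 12.82 (median 12.61) in HZ mice and 9.84 to 12.11 (median 10.82) in WT mice. It rose by 1.59, a fold of 3.02 (SE 0.31, adjusted p = 0.00987), while the other 13 measured genes of heme synthesis and breakdown did not pass. Wee1 (probeset 10556266), a kinase that delays entry into mitosis, was at 9.08 to 10.09 (median 9.86) in HZ mice and 7.73 to 8.95 (median 8.73) in WT mice. The groups did not overlap, and Wee1 rose by 1.23 (SE 0.24, adjusted p = 0.00987). Marveld1, a membrane protein, rose by 0.43 (adjusted p = 0.0467), a call lost in 15 of the 16 fits without 1 array.

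Avpr1a (probeset 10366707), the vasopressin receptor of hepatocytes, was the lower output that held best. It lay at 8.41 to 9.38 (median 8.85) in HZ mice and 9.18 to 10.30 (median 9.80) in WT mice, and fell by 0.87 (SE 0.13, adjusted p = 0.000808). The call remained under every alternative. Insig2, which keeps the sterol sensor in the ER, fell by 0.80 (adjusted p = 0.0324), and Slc16a1, a lactate and pyruvate transporter, by 0.55 (adjusted p = 0.0297). Upp2 (0.95, adjusted p = 0.0693) and Nampt (0.58, adjusted p = 0.130) did not pass.

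Mice of 1 genotype also differed among themselves in the clock. Within the 8 WT mice, those with more Arntl had less Per3 (Pearson r = -0.851, exact permutation p = 0.00471; Spearman rho = -0.929, p = 0.00223) and less Dbp (r = -0.819, exact permutation p = 0.00506; rho = -0.857, p = 0.0107). Adjusted over the 4 relations computed, p was 0.0101 for both Pearson values, and 0.00893 and 0.0214 for the Spearman values of Per3 and Dbp. Without the 2 mice farthest from the median of Arntl r was -0.725 for Per3 and -0.658 for Dbp. WT saline replicate 1 held both the most Arntl (8.65) and the least Per3 (7.23) and Dbp (8.15). Within the 8 HZ mice neither relation passed (Arntl with Per3 r = -0.445, rho = -0.548, exact permutation p = 0.256 and 0.171; with Dbp r = 0.104, rho = 0.167, exact permutation p = 0.784 and 0.703). Without the 2 farthest HZ mice r was -0.863 with Per3 and -0.571 with Dbp, so these values rest on few mice, and whether the relations differ by genotype was not tested.

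Markers of the non-parenchymal cells of the liver lay below WT in saline HZ mice. For Kupffer cells, the resident macrophages, 14 of 14 measured markers had a lower mean in HZ mice, for sinusoidal and vascular endothelium 13 of 13 and for stellate cells and fibroblasts 13 of 14. Over all genes 42.2% did. The median difference was -0.40, -0.31 and -0.21 in the same order, and -0.01 for 9 hepatocyte markers. Of these 41 markers 3 passed the test, all lower, beside 0.281% of all genes that passed and were lower. Fewer cells of a type and less RNA per cell cannot be told apart in whole liver, and markers of 1 cell type share their source and are not independent.

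Bmp2, the endothelial signal that sets hepcidin expression in hepatocytes, was at 8.47 to 9.16 (median 8.89) in HZ mice and 8.91 to 9.67 (median 9.497) in WT mice. It fell by 0.53 (SE 0.11, adjusted p = 0.0149). Fcgr2b, the antibody receptor of sinusoidal endothelium, fell by 0.44 (adjusted p = 0.0273). The pan-endothelial genes Cdh5 (-0.36), Eng (-0.35) and Pecam1 (-0.31) and the sinusoidal lectin Clec4g (-0.39) did not pass, and neither did the stellate cell genes Hgf (-0.46) and Dcn (-0.29) beside Reln, which did. None of the Kupffer cell markers passed. The lysozyme Lyz2 was at 8.73 to 9.84 in HZ mice and 8.91 to 10.90 in WT mice (-0.72, adjusted p = 0.216), and the receptor Csf1r differed by -0.43 (adjusted p = 0.223).

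The mean log2 level of the Kupffer list spanned 8.36 to 9.13 in HZ mice and 8.26 to 9.51 in WT mice, where WT saline replicate 1 was the lowest. That of the endothelial list spanned 9.16 to 9.58 in HZ mice and 9.49 to 9.88 in WT mice, and that of the stellate list 8.25 to 8.46 in HZ mice and 8.44 to 8.72 in WT mice. In VPA mice the 3 medians were 0.11, 0.03 and 0.05, and none of the 41 markers passed. Without WT saline replicates 1, 2 and 7 the saline medians were -0.53, -0.30 and -0.23, and 1 marker, Bmp2, passed. None passed without HZ saline replicate 4 or 5. Other genes that fell, named after their values were seen, were the cytoskeletal genes Actb (-0.16, no overlap), Flna (-0.37) and Tpm4 (-0.40), the small GTPase Rhoc (-0.39), the endothelial receptor genes Cd93 (-0.40) and Adgrl4 (-0.48) and the secreted protein gene Igfbp7 (-0.47). The Cd93 call was lost in 13 of the 16 fits without 1 array, that of Actb in 11 and that of Flna in 10. Actb was the reference gene of the study's PCR, and lay at 13.66 to 13.80 in HZ mice and 13.83 to 13.95 in WT mice. The part of cell composition in these results was not tested.

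**Figure D4:**
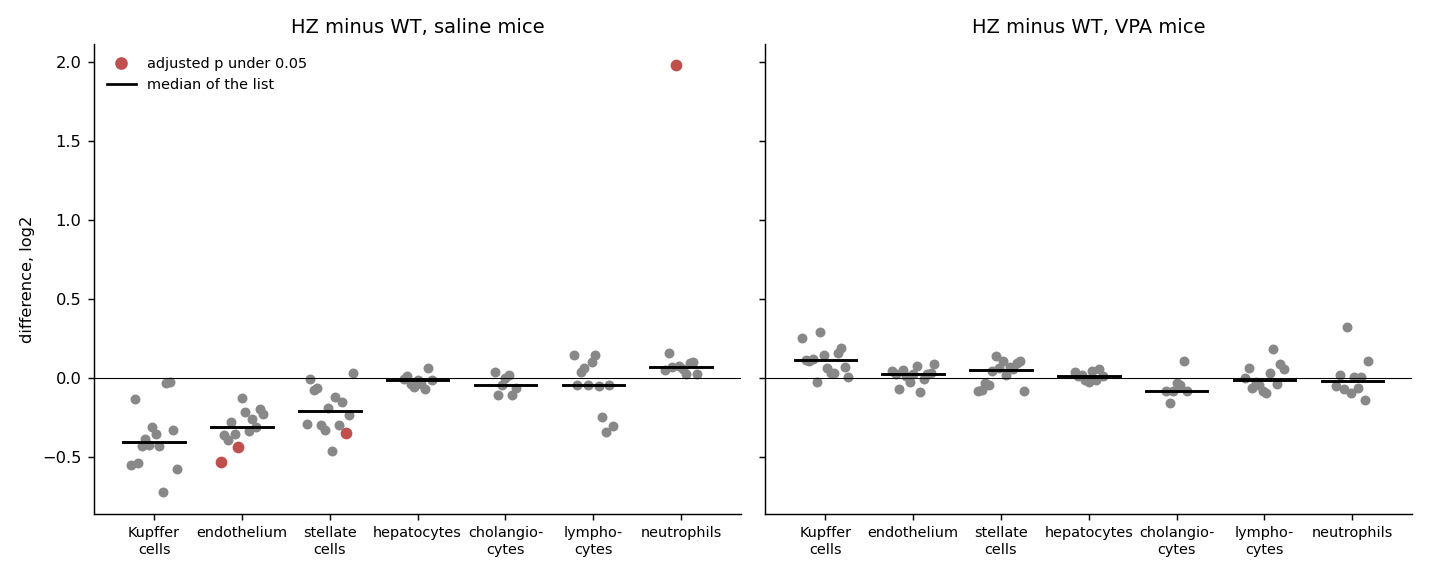
HZ minus WT difference (log2) of each measured marker of 7 cell types in saline mice (left) and VPA mice (right), with the list median as a bar and markers past the adjusted p of the saline comparison in red in the left panel only. In saline mice 40 of 41 Kupffer, endothelial and stellate markers lie below 0, while hepatocyte markers lie close to it.

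Genes of glucose metabolism changed singly. G6pc, the catalytic unit of glucose-6-phosphatase that releases glucose from the liver, was at 11.78 to 13.16 (median 12.79) in HZ mice and 12.96 to 13.75 (median 13.46) in WT mice. It fell by 0.71 (SE 0.16, adjusted p = 0.0363), with 6 of 8 HZ mice below all WT mice. Pgm2, a phosphoglucomutase, fell by 0.33 (adjusted p = 0.0385), and the other 34 measured genes of gluconeogenesis, glycogen and glycolysis did not pass, Pdk4 (-1.09, adjusted p = 0.173) and Ppp1r3c (-0.85, adjusted p = 0.0906) among them. The list as a whole did not lean lower. Of its 36 measured genes 24 had a higher and 12 a lower mean in HZ mice, and the median difference was 0.06. Over all genes 42.2% had a lower mean. Pgm1 differed by 0.18 and did not pass. Grb14, an adaptor that inhibits the insulin receptor, fell by 0.29 (adjusted p = 0.0467), the only one of 25 insulin signalling genes, and Irs1 (-0.40) did not pass. The Grb14 call was lost in 13 of the 16 fits without 1 array, and those of G6pc and Pgm2 in 11 each. Gpd2, the mitochondrial glycerol phosphate dehydrogenase, was at 8.90 to 9.83 in HZ mice and 9.99 to 10.36 in WT mice, without overlap, and fell by 0.72 (SE 0.12, adjusted p = 0.00329).

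Other single genes moved in both directions. Gatm (probeset 10487011), the first enzyme of creatine synthesis, was at 8.80 to 9.75 (median 9.18) in HZ mice and 9.46 to 10.30 (median 10.02) in WT mice and fell by 0.73 (SE 0.13, adjusted p = 0.00335). Slc30a10, a manganese exporter, was at 8.04 to 8.80 in HZ mice and 8.84 to 9.47 in WT mice, without overlap, and fell by 0.78 (SE 0.14, adjusted p = 0.00335), the only one of 18 genes of metal handling to pass. The metallothioneins Mt1 (1.23) and Mt2 (1.76) varied among HZ mice, with an SD of 1.05 and 1.56, against 0.26 and 0.73 in WT mice, and did not pass. Mpzl1, a cell surface glycoprotein, fell by 0.60 without overlap, the activin subunit gene Inhba by 0.86, the kinase gene Gask1a by 0.92, the ubiquitin ligase gene Nedd4l by 0.64, the mitochondrial chaperone gene Clpx by 0.71 and Spata22, a gene of meiotic recombination, by 0.69. Higher were Hnf4aos, an antisense RNA of Hnf4a (0.75), the kinase Map2k6 (0.72), the ubiquitin ligase Lnx1 (0.67), Naaladl2 (0.66), Lonrf1 (0.59), the thymidine kinase Tk1 (0.55) and the Wnt receptor Fzd4 (0.58), which was named after its values were seen. The calls of Clpx and Map2k6 were each lost in 13 of the 16 fits without 1 array. Those of Lnx1, Tk1 and Hnf4aos were lost in 11, 9 and 8 of them. Those of Gatm, Slc30a10, Mpzl1 and Nedd4l were kept in all of these fits.

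Of 31 measured genes of the acute phase and complement 1 passed, Lcn2, and the median difference of the list was 0.07. Lcn2, an iron-binding protein of inflammation, was at 9.00 to 12.46 (median 10.25) in HZ mice and 7.76 to 9.38 (median 8.60) in WT mice. It rose by 1.98, a fold of 3.95 (SE 0.47, adjusted p = 0.0457). This call was lost in 15 of the 16 fits without 1 array. The serum amyloid genes differed as widely but did not pass, Saa1 by 2.42 (adjusted p = 0.05003, just outside the threshold) and Saa2 by 2.17 (adjusted p = 0.117), and their near-identical sequences may share signal. Saa1 was highest in HZ saline replicates 8 (11.91), 7 (10.27) and 1 (9.38), while the highest WT mouse was at 7.37. Lcn2 was also the 1 of 10 neutrophil markers that passed. The neutrophil genes S100a8 and Ly6g differed by 0.10 and 0.08 and did not pass. All 10 neutrophil markers had a higher mean in HZ mice, with a median difference of 0.07. Over all genes the median difference was 0.02, and 42.2% had a lower mean.

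Of 36 measured genes of the unfolded protein response and ER chaperones none passed, and 29 had a lower mean in HZ mice, as had 42.2% of all genes. Hspa5, the main ER chaperone, differed by -0.27 (adjusted p = 0.332) and the ER stress kinase Eif2ak3 by -0.32 (adjusted p = 0.136). Among 12 genes of ER calcium handling Atp2a2, the calcium pump that fills the ER, was at 10.82 to 11.28 (median 11.07) in HZ mice and 11.23 to 11.74 (median 11.43) in WT mice. It fell by 0.33 (SE 0.08, adjusted p = 0.0342), a call lost in 10 of the 16 fits without 1 array. Of 15 heat shock genes none passed and 14 had a lower mean, beside the same 42.2% of all genes, among them Hsp90aa1 (-0.50) and Dnajb1 (-0.36).

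In the growth hormone axis Cish, a feedback inhibitor of growth hormone signalling, rose by 1.24 (SE 0.28, adjusted p = 0.0360), at 8.23 to 9.18 in HZ mice and 6.72 to 8.47 in WT mice. The Cish call was lost in 12 of the 16 fits without 1 array. Bcl6, a repressor whose expression growth hormone lowers in liver, differed by -1.45 (adjusted p = 0.0912) and did not pass, nor did any of 34 male-biased and 36 female-biased liver genes, whose median differences were -0.05 and 0.21. A list of genes was taken from the KO comparison of the study, which used these WT controls and is therefore not independent. Of its 37 measured members Abhd1 alone passed here. Lepr, Ppard, Sult3a1 and Fmo2, which the study also measured by PCR, as it did Wfs1, did not pass in HZ saline mice. Fmo2, a flavin monooxygenase, was at 7.44 to 8.74 in HZ mice and 6.76 to 7.45 in WT mice, a difference of 0.80 (SE 0.30, adjusted p = 0.302). Of the HZ mice 7 of 8 lay above all WT mice, and an exact permutation test of Fmo2 alone gave an unadjusted p of 0.000311. The same test gave 0.136 for Lepr, 0.598 for Ppard and 0.0608 for Sult3a1. The limma fit also took in the KO mice, whose SD of Fmo2 under saline was 1.06, against 0.44 in HZ and 0.23 in WT mice. Fmo2 passed under none of 26 alternatives, the fit of only the 16 arrays among them (smallest adjusted p = 0.0570, limma). Lepr differed by -0.37, Ppard by 0.04 and Sult3a1 by 0.20, and Sult3a1 was low in both groups, at 3.31 to 4.19 in HZ mice and 3.16 to 3.60 in WT mice.

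Across the same contrast in VPA mice 1 probeset passed, Abhd1 (0.00281%), while 1023 had an unadjusted p under 0.05 (2.88%). Of the 108 probesets of the saline comparison 61 had the same direction in VPA mice and 4 also had an unadjusted p under 0.05 there. Their median size was 0.06 in VPA mice, against 0.46 in the saline mice in which they were chosen. Clock differed by -0.05, Per3 by 0.07, Usp2 by -0.20 and Alas1 by -0.42 in VPA mice. The levels of some clock genes in VPA mice were themselves far from those in saline mice, as given above. The difference between the saline and the VPA contrast passed at 0 probesets (limma, smallest adjusted p = 0.0746, with 2754 at an unadjusted p under 0.05), so that for no gene was the HZ minus WT difference shown to depend on treatment in this fit. With only the 32 HZ and WT arrays 12 probesets passed, among them Clock (-0.63), Wee1 (1.25), Usp2 (1.90), Alas1 (2.01) and Slc30a10 (-0.82).

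**Figure D5:**
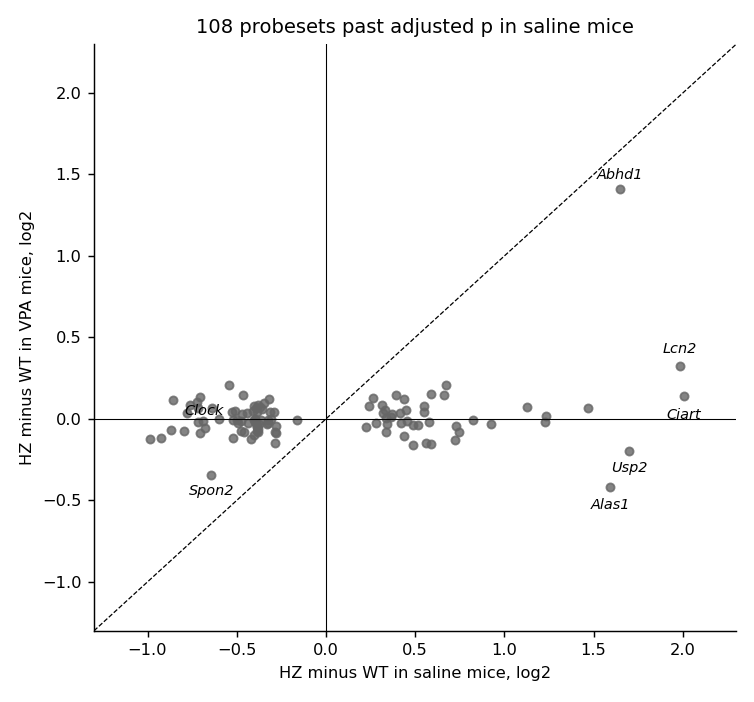
HZ minus WT difference (log2) of the 108 probesets past the adjusted p in saline mice (across) and in VPA mice (upwards), with the line of equal differences dashed. Abhd1 lies near the line, and most others lie close to 0 in VPA mice.

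KO mice given saline share the WT mice with this comparison when set against WT and the HZ mice when set against HZ, so the values stand side by side and were not compared as independent. Against WT mice 281 probesets passed in KO mice (0.79%), and against HZ mice 496 (1.39%). The mean of KO mice lay between those of WT and HZ mice at 74 of the 108 probesets. Those 108 were chosen for a difference between HZ and WT mice, which by itself makes this order more frequent. KO minus WT passed with the same sign at 8 of the 108, among them Abhd1, Clock (-0.46, adjusted p = 0.0106) and Lnx1 (0.77, adjusted p = 0.00924). Arntl (-0.08), Avpr1a (0.02), Gpd2 (0.08), Slc30a10 (0.01), Bmp2 (0.11) and Lcn2 (0.01) did not pass in KO against WT mice.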

How the data were processed

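Liver RNA was hybridised to 1 array per mouse. The deposited values are log2 signals of 35556 probesets that the authors normalised together over 48 arrays by RMA (Affymetrix Expression Console 1.1.2800.28061). Gene names came from the platform annotation, with 21789 probesets of 1 symbol, 1621 of several and 12146 of none, and a gene was represented by 1 probeset where lists were counted. Means of the 6 groups (8 mice each) were fitted to all 48 arrays with limma 3.58.1 in R 4.3.3, and p-values were adjusted by Benjamini-Hochberg over all probesets, with 0.05 as the threshold. A chosen set of single genes was also tested by exact permutation over all 12870 splits of the 16 mice (two-sided, numpy 2.4.6). Those p-values were not adjusted, and not all of them are printed. Correlations were tested by exact permutation of pairings (scipy 1.17.1). The fit was tested on simulated data. Named genes were Wfs1, Abhd1, the 15 largest rises and falls past the threshold, clock genes, list members with an unadjusted p under 0.01, genes near Wfs1 with a p under 0.001 and Ppard, Lepr, Sult3a1 and Fmo2, which the study also measured by PCR. Members and the 43 gene lists were chosen with earlier results of these data known. Alternatives were other sets of arrays, array weights, median centring, filters, 1 probeset per gene, a replicate block and leaving out each array. The number of arrays limits the precision. Scan dates were not used here. Same-numbered mice are not known to be related.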

Additional observations from a re-analysis of the deposited data

Results flagged for a closer look

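Among 99 genes and probesets described, 16 of 198 groups of 8 mice held a mouse whose gap to its nearest neighbour was large for the range of its group, 6 in HZ and 10 in WT mice. Chance alone gives about 1 in 20 groups. The causes were not tested. WT saline replicate 1 accounted for 5: it was lowest in Cd93 (7.75, next 8.11), Igfbp7 (11.59, next 12.03) and Pecam1 (7.80, next 8.15), and highest in Gask1a (9.93, next 9.31) and Rhoc (8.65, next 8.23). Other WT mice stood apart in Acot3 (replicate 4 highest at 9.02, next 8.00), Atp2a2 (replicate 7 highest at 11.74, next 11.46), Irs1 (replicate 8 lowest at 8.61, next 9.42), Stab2 (replicate 8 lowest at 9.53, next 9.78) and Marveld1 (replicate 3 lowest at 9.23, next 9.49).

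Of the HZ mice, replicate 8 was highest in Bcl6 (8.63, next 8.02) and in 9130230L23Rik (6.54, next 6.05). Replicate 2 was lowest in Alas1 (11.79, next 12.53) and replicate 5 in G6pc (11.78, next 12.53). Replicate 1 was highest in Onecut1 (11.60, next 10.68) and replicate 6 in Sult3a1 (4.19, next 3.65).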

How the results depend on the processing

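The 108 calls became 64 with only the 16 arrays compared, 29 with the 24 saline arrays, 364 with array weights, 166 of 19938 with 1 probeset per gene, 279 at an unadjusted p under 0.001 and 216 at an adjusted p under 0.1. Without 1 array the count ranged from 26 to 143, and without WT saline replicates 1, 2 and 7 it was 8, a choice made after seeing the data. Leaving out HZ saline replicate 4, 5, 8 or 3 gave 26, 31, 45 or 60 calls, and leaving out WT saline replicate 4, 2, 7, 5 or 6 gave 57, 62, 67, 69 or 69. The clock lists held 7 calls as reported, 2 with the 24 saline arrays, 1 without the 3 WT arrays and 2 to 7 without 1 array. The Kupffer, endothelial and stellate lists held 3 as reported, 0 with the 16 and with the 24 arrays, 8 with array weights, 5 with probesets of 1 symbol, 5 with 1 probeset per gene, 1 without the 3 WT arrays and 0 to 7 without 1 array. With the replicate number as a block 162 probesets passed, all 108 among them, with 5 calls in those cell lists and 5 in the difference between saline and VPA mice, which held 0 as reported and 12 with only the 32 HZ and WT arrays. Same-numbered mice correlated over 0.1 in 3 of 8 pairs, so the numbers were not taken as pairs. Of 54 passing probesets followed (Ciart with 2), those of Abhd1, Clock and Avpr1a passed under every alternative and 51 lost the call at least once. Nr1d1 (-0.03) changed sign, at -0.13 to 0.044 without 1 array (0.0020, 0.0055 and 0.026 without WT saline replicates 1, 4 and 7, 0.0064 when HZ saline replicate 6 was left out and 0.044 when replicate 4 was) and 0.11 without the 3 WT arrays. The causes were not tested.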
